A study of Mus musculus with 3 samples.

Results

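Stab1-high endothelial cells (ECs) of adult mouse bone marrow (BM) were described, 575 of the 7948 cell barcodes of the adult library and of the 24875 barcodes of the whole series. They were chosen by counts of molecules in the cell itself. A cell had to hold at least 5 molecules of Pecam1 and Kdr together, making up at least 5% of its molecules, no molecule of Ptprc or Gja4, at least 3 molecules of Stab1 and fewer than 3 of Vwf. Cells needed at least 20 molecules in all, which left out 0 cells of the 3 libraries. Levels of these 6 targets therefore describe the choice and are no finding.

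A targeted panel of Wnt pathway and cell type genes was counted in single cells, with 1 library in each of 3 groups. Adult BM cells came from marrow of several pooled adult mice after removal of mature haematopoietic cells. E18.5 EC holds ECs sorted from pooled embryos at stage E18.5 of embryonic development, with a gate that is described both with CD31 and endomucin and with CD31 alone, and E18.5 BM cells holds embryonic marrow after removal of cells with lineage markers. For adult marrow the study's methods add steps that removed cells with CD71, CD117, CD45 and Ter119, and whether these were used for the targeted adult library is not given in the sources used here. The labels give all 3 groups as wild type C57/B6, and the ages of the adult mice are not given in the sources used here.

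Sinusoids are the wide, thin-walled and leaky venous vessels of the marrow, through which blood cells enter the circulation. Their ECs are known for scavenger receptors such as Stab1, which takes up circulating waste products, and for Kdr, a receptor for vascular endothelial growth factor. Wnt proteins are lipid-modified ligands that are carried to the cell surface by Wls and bind frizzled receptors, and either stabilise β-catenin or act through other routes, as Wnt5b mostly does. The label of these cells as sinusoidal could not be checked with independent genes. Of the 6 sinusoidal markers listed for the purpose the panel held Stab1 and Kdr, and both set the rule. The cells are therefore called Stab1-high ECs.

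The sequences before the starts of 4 genes that carry the description are shown, since Stab1 and Kdr set the rule, Wnt5b was the leading ligand and Wls was among the targets higher in these cells. Each holds the 250 bases before the RefSeq start on GRCm38.p6, 5′ to 3′ on the strand of the gene. Capitals mark a match to the TCF/LEF letters CTTTGA or the ETS letters CCGGAA, on either strand.
Stab1, chr14:31168642-31168891, minus strand: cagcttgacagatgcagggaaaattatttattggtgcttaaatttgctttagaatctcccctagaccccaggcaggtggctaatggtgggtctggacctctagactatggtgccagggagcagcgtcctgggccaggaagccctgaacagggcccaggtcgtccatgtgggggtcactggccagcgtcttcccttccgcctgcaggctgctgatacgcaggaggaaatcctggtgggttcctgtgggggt
Kdr, chr5:75978456-75978705, minus strand: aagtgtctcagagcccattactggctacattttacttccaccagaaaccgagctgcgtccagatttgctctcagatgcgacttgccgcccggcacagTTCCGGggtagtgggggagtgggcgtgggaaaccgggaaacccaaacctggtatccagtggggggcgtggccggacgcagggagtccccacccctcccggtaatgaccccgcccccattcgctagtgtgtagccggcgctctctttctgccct
Wnt5b, chr6:119449387-119449636, minus strand: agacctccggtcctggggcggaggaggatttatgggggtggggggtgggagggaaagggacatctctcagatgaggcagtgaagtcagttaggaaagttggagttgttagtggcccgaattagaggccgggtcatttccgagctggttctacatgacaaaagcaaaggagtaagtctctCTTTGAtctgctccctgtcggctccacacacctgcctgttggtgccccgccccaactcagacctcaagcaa
Wls, chr3:159839400-159839649, plus strand: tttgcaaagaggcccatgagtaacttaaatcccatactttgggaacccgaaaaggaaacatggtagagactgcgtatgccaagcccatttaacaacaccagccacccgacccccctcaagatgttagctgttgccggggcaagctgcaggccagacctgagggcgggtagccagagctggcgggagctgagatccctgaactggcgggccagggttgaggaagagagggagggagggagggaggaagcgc
The letters CTTTGA occurred in the Wnt5b sequence, at position -71 from the start, and the ETS letters occurred in that of Kdr as their reverse complement, at position -153. Neither was found in the other sequences, and the searched motifs do not overlap each other here. Over all 32851 promoter sequences of the same length, 13.8% held CTTTGA and 12.03% held CCGGAA on either strand. A match is a description of the letters. The panel amplicon of Stab1 belongs to a transcript of 69 exons on chromosome 14 from 31139013 to 31168641, that of Kdr to 30 exons on chromosome 5 from 75932827 to 75978458, that of Wnt5b to 5 exons on chromosome 6 from 119432531 to 119449386, and that of Wls to 12 exons on chromosome 3 from 159839672 to 159936023.

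Depth differed between libraries, with a median of 242 molecules per cell in the adult library and of 83 (E18.5 EC) and 96 (E18.5 BM cells) in the embryonic ones. The Stab1-high ECs held 71062 molecules, with a lowest, median and highest depth of 38, 100 and 1285 molecules and a median of 19 targets per cell. Levels are given as molecules per 10000 molecules of the panel, summed over the cells of a group. All intervals in parentheses are exact 95% intervals that cover counting error only, because cells of 1 library are not replicates. No p-value is given, and a target was counted as higher or lower where the ratio of its levels was past 2-fold and both groups together held at least 20 molecules. Primers of a panel amplify with unequal efficiency, so levels were compared between groups of cells and not between genes. The adult library shared 38 barcodes with E18.5 EC and 113 with E18.5 BM cells, the embryonic libraries shared 58, and 9 Stab1-high ECs had a barcode also found in another library. No doublet caller was run.

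The Stab1-high ECs made up 7.23% of the adult library (6.67 to 7.83) and 57.9% (54.8 to 61.0) of the 993 ECs without Gja4, a connexin gene of arterial ECs. The other 418 of these ECs were 246 Stab1-low ECs, with fewer than 3 molecules of both Stab1 and Vwf, and 172 Vwf-high ECs, of which 30 also had 3 or more Stab1 molecules. Vwf encodes the von Willebrand clotting factor. Median depth was 73 molecules in Stab1-low and 122.5 in Vwf-high ECs. For reference, 487 arterial cells with at least 3 Gja4 molecules had a median depth of 173, and 221 blood cells with at least 3 molecules of Ptprc, the gene of CD45, and none of Pecam1 or Kdr had a median of 75. These blood cells were a mixed reference. A single cell held 6227 molecules, 18.8% of the group's total, and 28 carried markers of stromal, bone, cartilage or mural cells, so values without those 28 cells are given where they matter. Both ways of leaving cells out were chosen after the data were seen. A further 183 ECs with 1 or 2 Gja4 molecules belonged to no group, and 87 of them had 3 or more Stab1 molecules.

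The targets of the rule describe the choice. Per cell the lowest, median and highest Stab1 counts were 3, 7 and 40, those of Kdr were 0, 4 and 27, and those of Pecam1, the gene of CD31, were 2, 18 and 159. Kdr was detected in 95.5% of the cells, and 513 of them had no Vwf molecule. Cells on either side of the limits had overlapping intervals for Kdr, and at the Stab1 limit for Wnt5b too. The 59 cells just inside the limit, with 3 Stab1 molecules, had a Kdr level of 451 (396 to 511), and the 61 cells just outside, with 2, had 429 (374 to 490). Wnt5b was at 44.7 (28.7 to 66.5) just inside and 39.2 (23.9 to 60.5) just outside. At the Vwf limit, 12 cells with 2 molecules were inside and had a Kdr level of 431 (333 to 548), and 5 cells with 3 were outside and had 361 (226 to 547).

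Few targets made up most of what was counted in the Stab1-high ECs. Igfbp7, which encodes a secreted protein that binds insulin-like growth factors, held 21.7% of their molecules, Pecam1 17.98%, Srgn, the gene of the granule proteoglycan serglycin, 10.6%, Stab1 7.43%, Kdr 4.39%, the chemokine gene Cxcl12 3.54%, the osteocalcin-related gene Bglap3 3.38%, the cyclin D1 gene Ccnd1 2.36% and Ecm1, a matrix protein gene, 1.70%. Igfbp7 was found in 99.0% of the cells and had a lowest, median and highest count of 0, 21 and 166 per cell. Bglap3 was as frequent in blood cells as in Stab1-high ECs, with 93.7% of the former and 93.2% of the latter at median depths of 75 and 100. Its level was 338 in Stab1-high ECs, 887 in blood cells and 513 in blood cells without stromal-type markers. Whether it is background was not tested. Its near-identical copies Bglap and Bglap2 share sequence with it, so how reads were divided among the 3 is uncertain.

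Several targets outside the rule differed with the Stab1 count of the cell. Over all adult ECs without Gja4 and with fewer than 3 Vwf molecules, the Wls level was 39.6 (28.2 to 54.1) in 102 cells with no Stab1 molecule, 64.3 (46.4 to 87.0) in 83 cells with 1, 93.99 (69.3 to 125) in 61 cells with 2, 114 (95.1 to 136) in 122 cells with 3 to 4, and 144 (128 to 161) in 94 cells with 15 or more. Myc was at 12.2 (6.30 to 21.3) with no Stab1 molecule, 66.6 (46.1 to 93.0) with 2, 63.2 (49.4 to 79.8) with 3 to 4 and 117 (103 to 133) with 15 or more. Kitl, which encodes stem cell factor, ran the other way, from 617 (569 to 668) with no Stab1 to 229 (189 to 275) with 2 molecules and 75.3 (64.0 to 88.1) with 15 or more. The Wnt5b level was highest in between. It was 4.06 (1.11 to 10.4) at no Stab1 and 39.2 (23.9 to 60.5) at 2 molecules. It was 37.4 (27.0 to 50.6) at 3 to 4 and 14.01 (9.38 to 20.1) at 15 or more. The share of cells with a Wnt5b molecule had no such peak. This share was 1.96% at no Stab1 and 17.2% at 3 to 4 molecules. It was 18.3% at 5 to 9 and 20.2% at 15 or more. Cells with more Stab1 molecules were also deeper, with a median of 72.5 molecules at 3 to 4 and 192.5 at 15 or more, and the part of depth in these values was not tested. Grouped by the Stab1 share of the cell instead, the Wnt5b level of the Stab1-high ECs was 28.2 (21.5 to 36.3) below 5% and 22.2 (15.7 to 30.4) at 10% or more, intervals that overlap, while Wls was 111 (97.6 to 126) below 5% and 164 (146 to 185) at 10% or more.

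**Figure D1:**
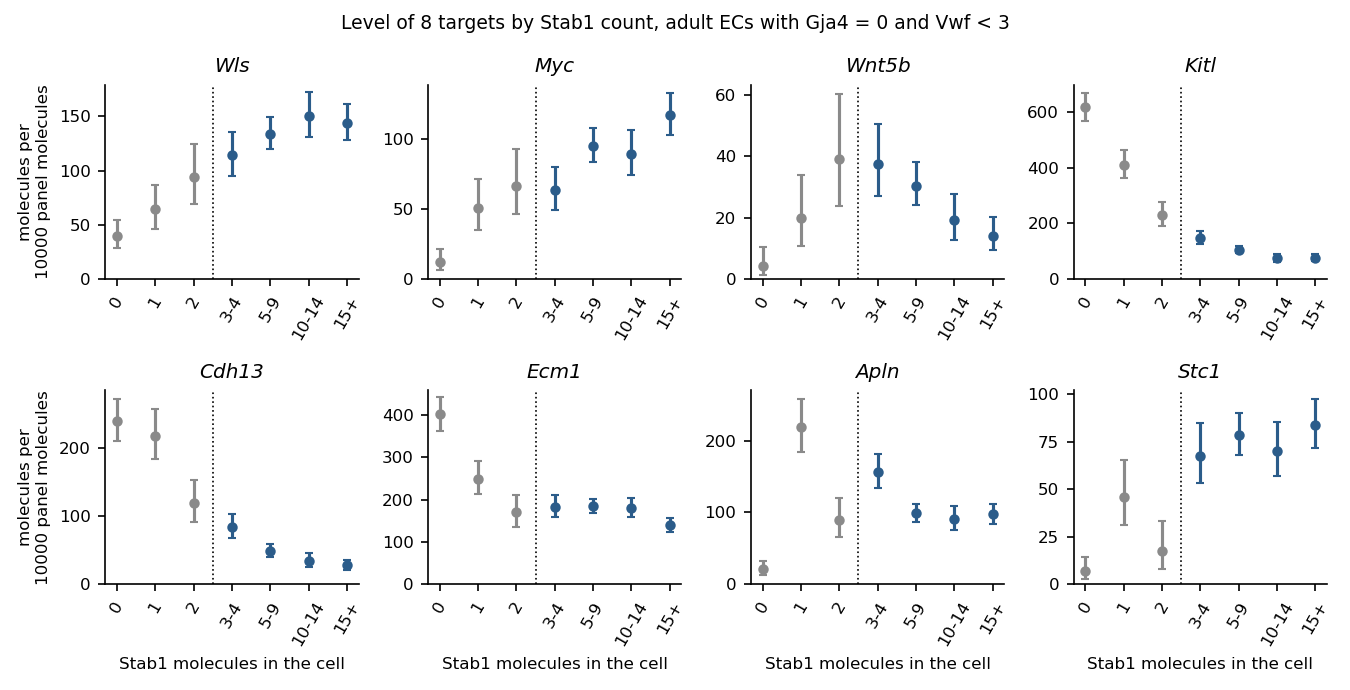
Level of 8 targets, in molecules per 10000 panel molecules, in adult ECs with no Gja4 and fewer than 3 Vwf molecules, grouped by the number of Stab1 molecules in the cell. Points are levels over all cells of a class, bars are exact 95% intervals of counting error, blue points are Stab1-high ECs, grey points lie outside the rule and the dotted line is the limit. Wls and Myc are higher with more Stab1, Kitl and Cdh13 are lower, and Wnt5b has its highest levels at 2 and at 3 to 4 molecules. The share of cells with Wnt5b, which is not drawn, has no such peak.

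Wnt5b was the ligand found most often. It had 174 molecules, 79.8% of the 218 ligand molecules of the Stab1-high ECs, and was detected in 106 cells, or 18.4% (15.3 to 21.9) at a median depth of 100. In blood cells, which should lack it, the share was 1.81% (0.495 to 4.57) at a median depth of 75, and 14 of the 17 molecules there lay in 1 cell. After each cell was thinned to 50 molecules the shares were 10.4% and 0.478%. Thinning left out 28 Stab1-high ECs and 12 blood cells with fewer molecules. Most Stab1-high ECs had no Wnt5b molecule: 469 had 0, 71 had 1 and 35 had 2 or more, with a highest count of 9. The 35 cells with 2 or more held 103 of the molecules, or 59.2%.

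The other ligands were scarce. Of 17 ligands named in the files 9 were seen, with 17 molecules of Wnt9a, 11 of Wnt4, 5 of Wnt2, 4 of Wnt11, 3 of Wnt9b, 2 of Wnt6 and 1 each of Wnt10b and Wnt5a. Wnt4 was at 1.55 per 10000, against 5.45 in blood cells and 0.620 in those without stromal-type markers. Wnt1, Wnt2b, Wnt3, Wnt7a, Wnt7b, Wnt8a, Wnt8b and Wnt10a had 0 molecules in 575 cells, which allows a share of up to 0.522% of cells with a molecule. Ligands summed to 30.7 molecules per 10000 (26.7 to 35.0) in Stab1-high ECs, 23.3 (17.3 to 30.7) in Stab1-low ECs, 17.9 (13.3 to 23.6) in Vwf-high ECs, 9.62 (7.81 to 11.7) in arterial cells and 14.8 (11.0 to 19.6) in blood cells, or 2.48 (0.676 to 6.35) in those without stromal-type markers. The intervals of the Stab1-high and Stab1-low ECs overlap, and those of the Vwf-high ECs, arterial and blood cells lie below that of the Stab1-high ECs.

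Against all 418 other ECs without Gja4, the summed ligands were 1.52 times as high (1.19 to 1.94) and Wnt5b was 2.26 times as high (1.66 to 3.13). These values use the error-corrected (DBEC) counts of the pipeline, which also gives RSEC-adjusted and raw molecules. The Wnt5b ratio was within 2-fold with RSEC-adjusted molecules at 1.77 (1.42 to 2.21), with raw molecules at 1.99 (1.66 to 2.39) and as a mean over cells at 1.92. The sizes of both moved with the limit on Stab1. With at least 5 Stab1 molecules in place of 3 the ratios were 1.17 (0.930 to 1.46) and 1.41 (1.07 to 1.85), and with at least 2 the Wnt5b ratio was 3.36 (2.32 to 4.99). Wnt5b was at 24.5 (21.0 to 28.4) in Stab1-high and 17.2 (12.1 to 23.7) in Stab1-low ECs, a ratio of 1.42 (0.992 to 2.09) that did not pass 2-fold, and at 5.98 (3.48 to 9.57) in Vwf-high ECs, a ratio of 4.10 (2.49 to 7.20). Against arterial cells the ratio was 3.19 (2.502 to 4.09) for summed ligands and 3.56 (2.69 to 4.77) for Wnt5b. Arterial cells more often met the limits set for markers of stromal, bone, cartilage or mural cells, 68.2% against 9.39% of the Stab1-high ECs. A count of 10 or more Cxcl12 molecules was enough to meet them, as in 269 of the 487 arterial cells and 27 of the 575 Stab1-high ECs. The study lists Cxcl12 among transcripts of embryonic arterial ECs, so this limit does not tell stromal molecules from the cells' own. Without all cells that met these limits, the ratios to arterial cells were 2.15 (1.46 to 3.29) for summed ligands and 2.48 (1.60 to 4.03) for Wnt5b.

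Wls, the carrier that all Wnt ligands need for secretion, was seen in 71.1% of Stab1-high ECs, with a lowest, median and highest count of 0, 1 and 27 per cell. Its level was 137 (129 to 146) in Stab1-high ECs, 60.04 (50.1 to 71.3) in Stab1-low ECs, 40.1 (33.1 to 48.1) in Vwf-high ECs, 45.0 (41.0 to 49.4) in arterial cells and 58.4 (50.4 to 67.2) in blood cells, or 94.3 (79.9 to 111) in those without stromal-type markers. The interval of the Stab1-high ECs lies above those of the other 4 groups.

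Of 8 frizzled receptors on the panel 7 were seen, and they summed to 777 molecules. Fzd6 was at 72.9 (66.8 to 79.5) in Stab1-high ECs, found in 52.3% of the cells, at 64.7 (54.4 to 76.4) in Stab1-low ECs and at 88.4 (82.7 to 94.4) in arterial cells, so arterial cells were above. Fzd4 was at 18.01 (15.03 to 21.4), against 12.6 (8.28 to 18.3) in Stab1-low ECs and 9.62 (7.81 to 11.7) in arterial cells. Both were lower in blood cells, at 6.05 for Fzd6 and 0.908 for Fzd4, or 11.8 and 1.86 in those without stromal-type markers. Fzd5 had 63 molecules, Fzd7 37, Fzd8 22, Fzd3 7, Fzd9 2 and Fzd2 0, and Fzd5 and Fzd7 were at 8.87 and 5.21 against 10.6 and 11.5 in blood cells. Against Stab1-low ECs 0 of 5 frizzled targets with enough molecules passed 2-fold, beside 11.3% of all targets higher and 18.3% lower. Against Vwf-high ECs 3 of 5 were higher, beside 47.1% of all targets, with ratios of 2.70 (1.66 to 4.63) for Fzd4, 7.41 (1.91 to 63.4) for Fzd7 and 2.94 (0.882 to 15.3) for Fzd8, of which Vwf-high ECs held 19, 2 and 3 molecules. Lgr4, a receptor for R-spondins, had 57 molecules and a level of 8.02 (6.08 to 10.4), against 6.52 (3.56 to 10.9) in Stab1-low ECs.

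**Figure D2:**
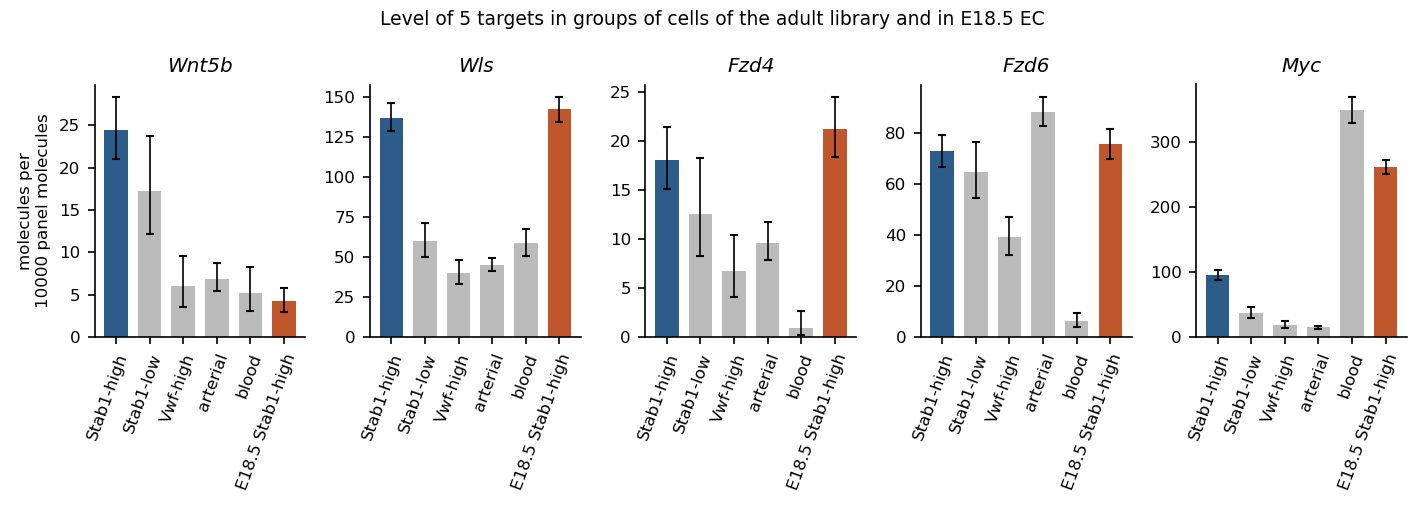
Level of Wnt5b, Wls, Fzd4, Fzd6 and Myc, in molecules per 10000 panel molecules, in Stab1-high ECs (blue), in 4 other groups of adult cells (grey) and in E18.5 EC cells chosen by the same limits (orange). Bars are levels over all cells of a group and lines are exact 95% intervals of counting error. Wls is at 137 in adult and 142 in E18.5 Stab1-high ECs, while Wnt5b is at 24.5 and 4.20.

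Over the panel, 17 of 72 targets were at least 2-fold higher in the Stab1-high ECs than in the other ECs without Gja4, or 23.6%, and 13 were at least 2-fold lower, or 18.1%. The median ratio over the 72 targets was 1.35, so a ratio above 1 was the rule. The part of the 2 other groups in this differed. Against Stab1-low ECs the median ratio was 1.08, with 8 of 71 targets higher (11.3%) and 13 lower (18.3%). Against Vwf-high ECs it was 1.82, with 33 of 70 higher (47.1%) and 10 lower (14.3%). Vwf-high ECs held 954 molecules of Ecm1 and 2616 of Srgn per 10000, against 170 and 1057 in Stab1-high ECs, and their part in the median was not tested.

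Myc, a growth-promoting transcription factor, was at 95.1 (88.1 to 103) against 36.8 (29.1 to 45.8) and 18.3 (13.7 to 24.0) in Stab1-low and Vwf-high ECs, but at 350 (330 to 371) in blood cells, or 686 (646 to 728) in those without stromal-type markers. Stc1, which encodes the secreted glycoprotein stanniocalcin 1, was at 76.7 (70.4 to 83.4) against 21.4 (15.7 to 28.6) and 26.4 (20.7 to 33.0), and had 0 molecules in blood cells. It was not particular to these cells, since arterial cells had 72.2 (67.1 to 77.6). Ratios to the other ECs were 3.63 (3.003 to 4.41) for Myc, 3.17 (2.59 to 3.89) for Stc1 and 2.82 (2.44 to 3.26) for Wls.

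Of the 17 higher targets, 16 were followed in 8 other settings, which included other molecule counts, thinned cells and either comparison group alone. In every one of these settings 4 targets stayed past 2-fold, Myc, Stc1 and Wls among them. For the rest the call depended on the setting. The proliferation gene Cdk1 had a ratio of 2.55 (1.94 to 3.39) to all other ECs, but 1.22 (0.920 to 1.65) to Stab1-low ECs and 13.9 (6.64 to 34.9) to Vwf-high ECs. Axin1, a scaffold of the complex that degrades β-catenin, had 2.11 (1.68 to 2.66) and 1.67 (1.25 to 2.26) against Stab1-low ECs, and Ccny, a cyclin that acts in Wnt receptor activation, 2.21 (1.70 to 2.89) and 1.83 (1.30 to 2.62). Ccar2 had 2.36 (1.93 to 2.91) and 1.94 (1.49 to 2.56). Ptn, Dkk3, Fzd7 and Fzd8 had ratios of 2.09, 2.23, 2.36 and 2.21, and of 1.26, 1.44, 1.24 and 1.66 against Stab1-low ECs. Single cells carried much of Postn, Spp1, Ccne1 and Acp5. Of 57 Postn molecules 44 lay in 1 cell, as did 208 of 465 Spp1, 28 of 57 Ccne1 and 12 of 20 Acp5 molecules, so their ratios of 8.01, 2.32, 3.64 and 2.81 describe single cells.

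Of the 7 tested members of the Wnt signal transduction list, 2 were higher, beside 23.6% of all targets, and the list's median ratio was 1.71, beside 1.35 over all targets. Against Stab1-low ECs 0 of the 7 passed 2-fold in either direction, beside 11.3% of all targets higher and 18.3% lower, with a median of 1.24 beside 1.08. Ccnd1, a known target of β-catenin, was within 2-fold at a ratio of 1.94 (1.77 to 2.13), with a level of 236 (225 to 248) against 155 (138 to 172) in Stab1-low ECs.

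**Figure D3:**
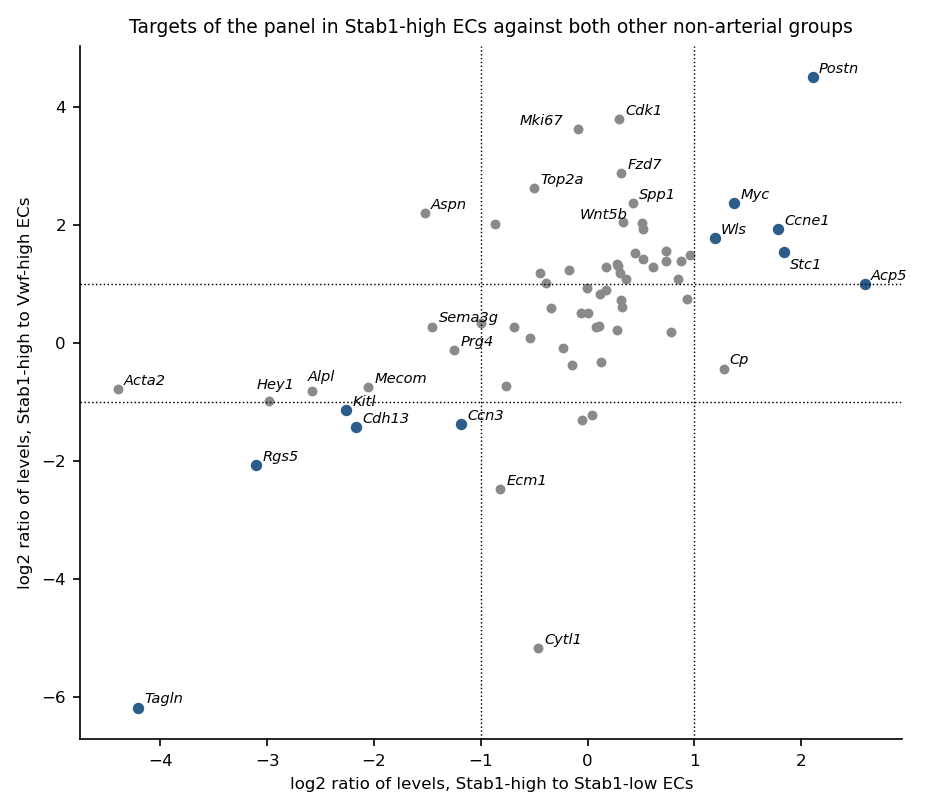
Ratio of levels, as log2, of adult Stab1-high ECs to Stab1-low ECs (horizontal) and to Vwf-high ECs (vertical) for 68 targets with enough molecules in both comparisons and a molecule in all groups. Dotted lines mark 2-fold, and blue points are past it in the same direction on both axes. There are 6 such targets drawn on the higher side, among them Myc, Stc1 and Wls, and 5 on the lower side, and Wnt5b passes 2-fold on the vertical axis alone.

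Beside 18.1% of all targets, 3 of the 4 mural markers were lower in the Stab1-high ECs, with Notch3 within 2-fold at a ratio of 1.19. Of 4 tested arterial markers Hey1 was lower and the other 3 were within 2-fold. Of 3 niche factors Kitl was lower, Ptn was higher at a ratio of 2.09 and Cxcl12 was within 2-fold at 0.764. The median ratios of these lists were 0.132, 0.590 and 0.764, beside 1.35 over all targets. Counted per cell, 3 or more Cxcl12 molecules were found in 13.9% of Stab1-high, 48.8% of Stab1-low and 40.7% of Vwf-high ECs. Cdh13, which encodes T-cadherin, was at 45.7 (40.9 to 51.0) against 205 in Stab1-low and 123 in Vwf-high ECs, a ratio of 0.288 (0.253 to 0.329) to all other ECs. Kitl was at 96.7 (89.6 to 104) against 462 (434 to 492) and 214 (197 to 231), a ratio of 0.302 (0.275 to 0.330). Its amplicons appear to count the same molecules, since 18 Stab1-high ECs had 1 Kitl molecule and 97 had 2, so its intervals are too narrow. Tagln, a gene of smooth muscle, had 29 molecules against 1008, a ratio of 0.0202 (0.0135 to 0.0292). These 3 stayed past 2-fold in all 8 other settings. Hey1, a target of Notch in arteries, had a ratio of 0.221 (0.150 to 0.319), the transcription factor gene Mecom 0.365 (0.268 to 0.494) and Ecm1 0.253 (0.237 to 0.271). Acta2 and Rgs5, which mark mural cells, had 0.0995 and 0.164, Alpl, a bone marker, 0.280, and Ccn3 0.407. Some of these calls differed between the 2 comparison groups. Ecm1 was within 2-fold of Stab1-low ECs at 0.568. Hey1, Mecom, Alpl and Acta2 were within 2-fold of Vwf-high ECs, at 0.504, 0.596, 0.569 and 0.582. Cytl1, with 24 molecules against 358, and the ligand Wnt9b, with 3 against 22, lay mostly in Vwf-high ECs, which held 348 and 22 of these molecules. Mmp9, a protease gene of myeloid cells, had 0 molecules against 24, at least 11.4-fold lower with a floor of 3 counts over the group. Vwf-high ECs held 0 of these molecules. Without cells with stromal-type markers both sides had 0, so nothing was left of this difference.

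Markers of other cell types moved with some of these results. Cells with 10 or more Cxcl12 molecules or 5 or more of the restricted stromal, bone, cartilage and mural lists made up 9.39% of Stab1-high ECs, 31.3% of Stab1-low ECs and 39.5% of Vwf-high ECs. Without them, the Tagln ratio was 0.224 (0.0904 to 0.511), that of Rgs5 0.471 (0.235 to 0.937), that of Kitl 0.392 (0.349 to 0.440) and that of Cdh13 0.405 (0.341 to 0.480), while Wls had 2.78 (2.35 to 3.32) and Wnt5b 1.93 (1.37 to 2.78), which is within 2-fold. Acta2, with 10 molecules on each side, was then within 2-fold at 0.523 (0.195 to 1.40). So were Mecom at 0.542 and Ccn3 at 0.549, while Alpl, Hey1, Cytl1 and Ecm1 stayed lower. Wnt9b and Mmp9 had too few molecules left to be counted. All 4 mural markers were seen in Stab1-high ECs, at a summed level of 34.3 (30.2 to 38.9) against 605 (590 to 620) in arterial cells. All 7 bone and 4 cartilage markers were seen too, at summed levels of 506 and 91.0, against 2289 and 1343 in blood cells of the same library. Without the deepest blood cell these 2 levels were 2261 and 101, and without the blood cells with stromal-type markers 627 and 77.6. The interval of the last value, 64.6 to 92.4, holds the cartilage level of the Stab1-high ECs. The blood list was at 1071, nearly all of it Srgn, against 3354 in blood cells and 6008 in those without stromal-type markers, with Mmp9 at 0 and Ptprc at 0 by the rule. The part of such molecules in the results was not tested beyond leaving these cells out.

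Against arterial cells, 23 of 71 targets were higher in Stab1-high ECs (32.4%) and 15 lower (21.1%), with a median ratio of 1.52. All 4 tested arterial markers were lower. The lower targets included Sema3g, a semaphorin gene of arterial ECs, at a ratio of 0.0763 (63.0 against 826), Hey1 at 0.0485, Mecom at 0.0740, Fbln5, a gene of elastic fibres, at 0.116, Mgp, an inhibitor of calcification, at 0.256 and Cxcl12 at 0.409. Apln, the gene of the peptide apelin, was at 106 (98.8 to 114) in Stab1-high ECs and 2.94 (1.99 to 4.20) in arterial cells, a ratio of 36.1 (25.1 to 53.9). Genes of dividing cells were higher too, with ratios of 13.9 for Mki67, 25.4 for Top2a and 8.71 for Cdk1.

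The Stab1-high ECs were not uniform. Apln was absent from 390 of the 575 cells, had 1 or 2 molecules in 103 and 3 or more in 82, with a highest count of 84. Stc1 was absent from 415 and had 3 or more molecules in 47. Of the 82 cells with 3 or more Apln molecules 3 also had 3 or more of Stc1 (3.66%), against 36 of the 390 without Apln (9.23%). The Stc1 level was 110 (100 to 121) in cells without Apln, 34.4 (25.7 to 45.1) at 1 or 2 molecules and 22.2 (15.1 to 31.5) at 3 or more. These intervals count molecules, and the 47 cells with 3 or more held 396 of the 545 Stc1 molecules. They are therefore too narrow for a contrast between classes of cells. Wnt5b was at 30.5 (25.4 to 36.3), 15.2 (9.65 to 22.8) and 16.5 (10.4 to 24.7).

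Cell cycle genes ran with Apln. Ccnd1 was at 184 (171 to 197) without Apln and 418 (385 to 453) at 3 or more molecules, Cdk1 at 13.1 (9.87 to 17.1) and 77.3 (63.4 to 93.3), and Mki67, which marks dividing cells, at 5.48 (3.47 to 8.22) and 60.8 (48.6 to 75.2). Only 18 Stab1-high ECs, or 3.13%, held 5 or more molecules of Mki67, Top2a and Cdk1 together, and 14 of these had Apln (77.8%), against 32.2% of all Stab1-high ECs. The classes differed in depth, with medians of 92, 112 and 142.5 molecules, and in the targets of the rule, with Stab1 at 804, 678 and 630 per 10000. Wls, at 133, 153 and 131, had overlapping intervals between the outer classes. Spp1 and Rgs5 were also higher with Apln, but 208 of 465 and 53 of 118 molecules lay in 1 cell.

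**Figure D4:**
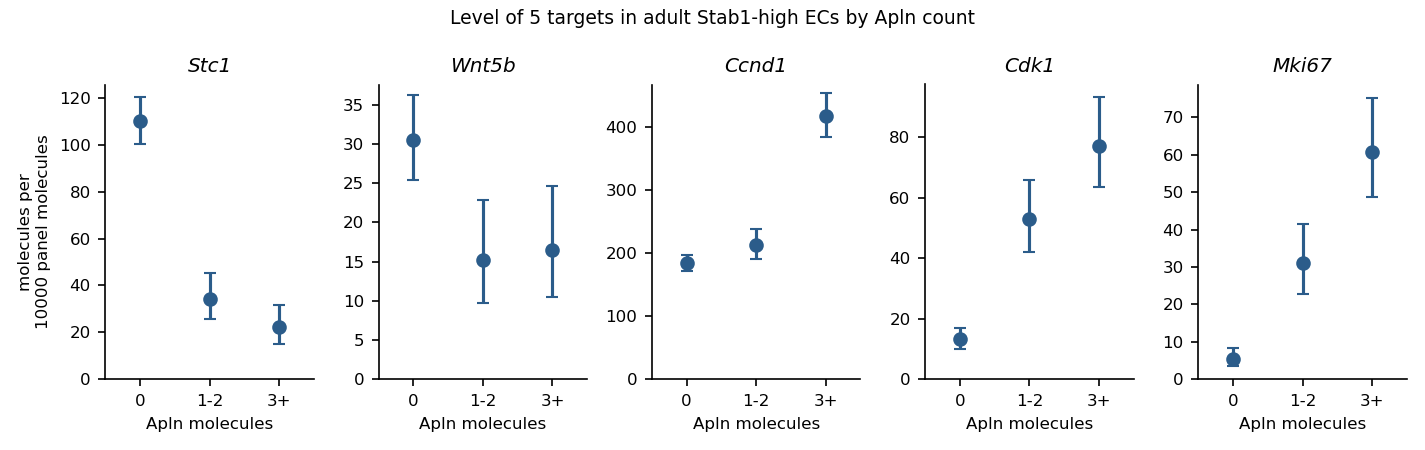
Level of 5 targets, in molecules per 10000 panel molecules, in adult Stab1-high ECs with 0 (390 cells), 1 to 2 (103 cells) and 3 or more (82 cells) Apln molecules. Points are levels over all cells of a class and bars are exact 95% intervals of counting error. Stc1 is lower and Ccnd1, Cdk1 and Mki67 are higher in cells with Apln.

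Cells with 2 or more Wnt5b molecules had Sema3g at 161 (126 to 202), against 50.2 in cells without Wnt5b, and less Cxcl12, at 110 (81.7 to 145) against 408. Their Stab1 level was 673 (600 to 753), against 742 (720 to 765) in cells without Wnt5b. Rgs5 was at 152 against 7.62, but 53 of its 118 molecules lay in 1 cell. Cxcl12 itself was unevenly spread: 27 Stab1-high ECs with 10 or more molecules held 80.1% of it, and 1 cell held 427 of 2517 molecules. It was highest in cells with a low Stab1 share, at 780 (743 to 818) below 5% and 134 (117 to 153) at 10% or more. Cxcl12 molecules count in the total from which this share is taken, so the order cannot show a relation to Stab1. By Stab1 count, Cxcl12 was at 281 (250 to 313) at 3 to 4 molecules and 224 (206 to 243) at 5 to 9. It was at 325 (296 to 356) at 10 to 14 and 572 (540 to 605) at 15 or more.

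The same limits applied to E18.5 EC chose 1045 of its 2486 ECs without Gja4, or 42.0% (40.1 to 44.0), with a median depth of 71 molecules. Stage, library, sort and depth cannot be told apart in this comparison. Of 71 targets 31 were higher in the adult Stab1-high ECs (43.7%) and 22 lower (31%). The targets of the rule were at 743 (adult) and 866 (E18.5) for Stab1 and at 439 and 252 for Kdr. Levels within 2-fold included Wls at 137 and 142, a ratio of 0.965 (0.886 to 1.05), Fzd6 at 72.9 and 75.6, a ratio of 0.964 (0.857 to 1.08), and Fzd4 at 18.01 and 21.2.

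Genes of dividing cells were lower in the adult cells. Top2a was at 17.4 (adult) and 270 (E18.5), a ratio of 0.0647 (0.0536 to 0.0776), Cdk1 at 34.2 and 361, a ratio of 0.0948 (0.0829 to 0.108), and Mki67 at 21.8 and 220, a ratio of 0.0990. All 4 cell cycle targets were at least 2-fold lower. Of the 3 β-catenin target genes Ccnd1 was at 236 and 774, a ratio of 0.305 (0.289 to 0.322), and Myc at 95.1 and 261, a ratio of 0.364. The other, Lef1, had 18 and 17 molecules and a ratio of 1.31 (0.638 to 2.71), so 2 of the 3 were lower, beside 31% of all targets. Apln was found in 32.2% of adult and 74.0% of E18.5 cells and its ratio was 0.221 (0.204 to 0.239). Ptn, a growth factor of the niche, had 0.194 (0.156 to 0.239), Kitl 0.321, Cdh13 0.245 and the receptor genes Lgr4 and Fzd5 0.384 and 0.368.

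The ligands differed in kind. Wnt5b had 174 molecules in adult and 37 in E18.5 cells, levels of 24.5 (21.0 to 28.4) and 4.20 (2.96 to 5.79) and a ratio of 5.83 (4.07 to 8.55). Wnt2, a ligand that acts through β-catenin, had 5 in adult and 53 in E18.5 cells, a ratio of 0.117 (0.0365 to 0.290). The ligands in sum had a ratio of 2.70 (2.12 to 3.46). Among the other higher targets were 7 of 7 bone markers, at a summed level of 506 in adult and 11.7 in E18.5 cells. These were also found in adult blood cells, with or without stromal-type markers, and their part in the libraries' difference was not tested. Srgn had a ratio of 9.95 (9.29 to 10.7), Igfbp7 2.12 (2.06 to 2.17) and Ecm1 2.05 (1.87 to 2.25). The adult cells kept 33.1% of raw molecules after the error correction of the pipeline and the E18.5 cells 21.0%.

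**Figure D5:**
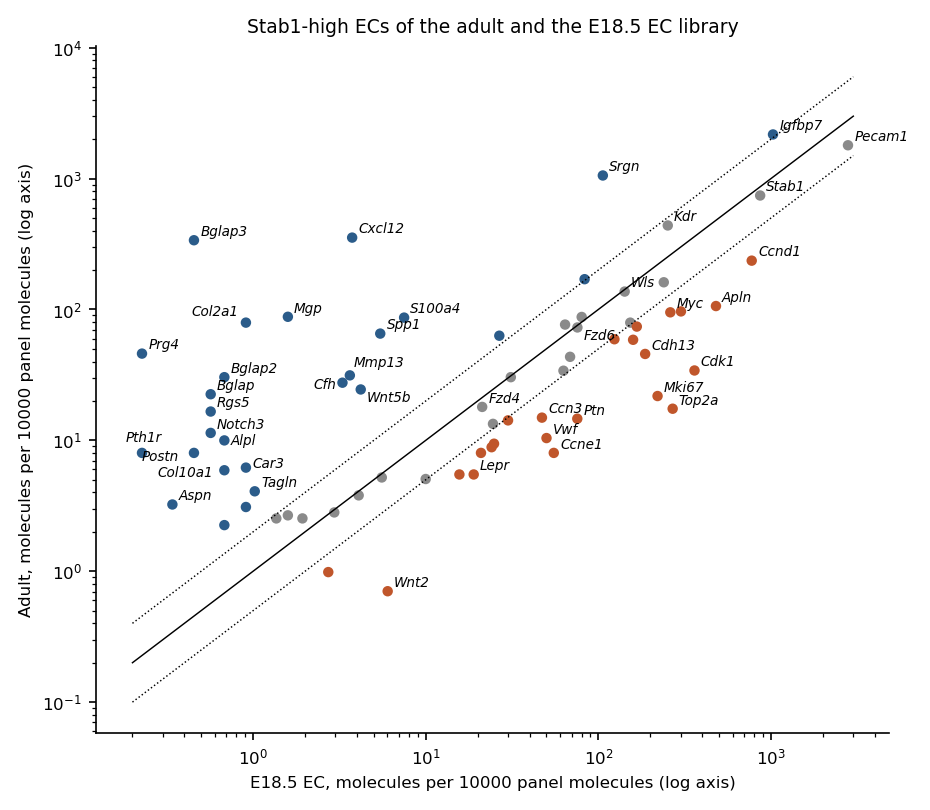
Level of each target in Stab1-high ECs of the adult library (vertical) and of E18.5 EC (horizontal), in molecules per 10000 panel molecules on log axes, for the reported targets with at least 20 molecules in sum and at least 1 in each. The solid line marks equal levels and the dotted lines 2-fold, with higher adult levels in blue and lower ones in orange. Genes of dividing cells lie at the lower right and Wnt5b above the lines, and Acan, Cp and Cytl1, with 0 molecules at E18.5, are not drawn.

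Set against the other ECs without Gja4 of their own library, the E18.5 Stab1-high ECs had 1 of 59 targets higher (1.69%) and 11 lower (18.6%), beside 23.6% and 18.1% in the adult library. The cells compared with were unlike, since 325 of 1441 at E18.5 but 30 of 418 in the adult library held 3 or more Stab1 molecules. Myc had a ratio of 1.58 (1.49 to 1.68) at E18.5 and 3.63 in the adult library, Wls 1.41 (1.30 to 1.53) and 2.82, and Wnt5b 1.51 (0.92 to 2.5) and 2.26. The 2 comparisons share no cells, and the difference between their ratios was not tested. Of 56 targets tested in both, 16 were higher in the adult and 1 at E18.5, with 0 in common. With 1 target higher at E18.5, this 0 cannot show a difference between stages. In each library 10 were lower, with 4 in common, which is 40% of each list, beside 18.1% (adult) and 18.6% (E18.5) of all tested targets lower. The shared targets were Acta2, Rgs5 and Tagln, which are mural markers, and Wnt9b. In the adult library all 22 Wnt9b molecules of the other ECs lay in Vwf-high ECs. Without adult cells with stromal-type markers, Acta2 was within 2-fold and Wnt9b had too few molecules to be counted.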

How the data were processed

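Targeted single-cell libraries of Adult BM cells, E18.5 EC and E18.5 BM cells were used, 1 per group. Per the file headers the deposited counts of molecules were made with the BD Targeted Rhapsody Analysis Pipeline 1.8, and the error-corrected (DBEC) counts were the main values, with RSEC-adjusted and raw molecule counts as alternatives. Cell limits, levels per 10000 molecules, ratios and exact 95% Poisson, binomial and conditional binomial intervals were computed in Python 3.11.15 with numpy 2.4.6, pandas 2.3.3, scipy 1.17.1 and matplotlib 3.10.9, and the ratio step was tested on simulated data. Cells were thinned at random to 50 molecules for shares at equal depth. All 125 transcripts named in the files were matched in GENCODE M21.

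Named targets were those of the rule, the 10 with most molecules, the Wnt ligands and frizzled receptors, up to 15 each way past 2-fold against other ECs, up to 10 each way against arterial cells and E18.5 EC, and members of listed groups where a list is described. A target that meets this rule is not reported here and stays in the counts over all targets. The members and lists were chosen with earlier results of these data known. Alternatives changed the limits, the kind of molecule, the minimum, the weighting of cells and the comparison cells. With 1 library per group no test between groups was made.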

Additional observations from a re-analysis of the deposited data

Results flagged for a closer look

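Igfbp7 and Stc1 differed in opposite directions at the 2 stages. The ratio of Stab1-high ECs to the other ECs without Gja4 was 1.63 (1.58 to 1.67) for Igfbp7 in the adult library and 0.65 (0.633 to 0.666) in E18.5 EC. For Stc1 it was 3.17 (2.59 to 3.89) in the adult library and 0.814 (0.732 to 0.905) in E18.5 EC. Both ratios of Igfbp7 and the E18.5 ratio of Stc1 were within 2-fold. In the adult library Igfbp7 had a ratio of 1.13 (1.09 to 1.17) to Stab1-low ECs and 2.44 (2.34 to 2.55) to Vwf-high ECs. The difference between stages was not tested, since each has 1 library.

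In E18.5 BM cells, a library that the comparisons did not use, 44 cells met the same limits, with a median depth of 87.5 molecules. Per 10000 molecules they held 459 of Stab1, 521 of Apln, 335 of Cdk1 and 0 of Wnt5b.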

How the results depend on the processing

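Of 74 alternative values 59 stayed within a tolerance, for a ratio the 95% interval of the reported value and for a count 1.5 times in either direction, 15 moved past it and 0 reversed. The count of higher targets was 24 with at least 2 Stab1 molecules and 22 in levels without the targets of the rule, both within that tolerance. The count of 17 higher targets was 5 with RSEC-adjusted molecules, 10 with raw molecules, 8 as a mean over cells, 10 after thinning, 27 with no minimum of molecules and 11 with at least 5 Stab1 molecules. The count of 13 lower targets was 20 as a mean over cells and 22 with a Stab1 limit of 3% of molecules, an alternative chosen after seeing the data. Against other ECs, at least 5 Stab1 molecules gave 1.17 for summed ligands and 1.41 for Wnt5b, and at least 2 gave 3.36 for Wnt5b. That ratio of 2.26 fell within 2-fold, at 1.77 with RSEC-adjusted molecules, 1.99 with raw molecules, 1.92 as a mean over cells and 1.93 without cells with stromal-type markers. Against arterial cells, summed ligands were 2.001 with RSEC-adjusted molecules, 2.28 with raw molecules and 2.15 without cells with stromal, bone, cartilage or mural markers, where Wnt5b was 2.48; this last alternative was also chosen after seeing the data. The cause of these shifts was not tested. The median ratio over targets against other ECs was 1.35, and 1.14 with RSEC-adjusted molecules, 1.18 with raw molecules and 1.13 after thinning.

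Leaving out all cells with 2 or more molecules of other cell types could not be run, since 0 Stab1-high ECs remained. No paired analysis was possible because each group has 1 library. The low depth per cell limits shares of cells with a molecule, and counting intervals do not cover differences between animals or libraries.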
